A study of Mus musculus with 23 samples.

Results

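The genes described here encode the nuclear subunits of respiratory complex III, complex IV (cytochrome c oxidase) and ATP synthase, together with cytochrome c. They were chosen by name: every mouse RefSeq symbol that starts with Uqcr, Cox4, Cox5, Cox6, Cox7, Cox8 or Atp5, plus Cyc1 and Cycs, with pseudogenes left out. This rule found 45 genes among 21368 RefSeq symbols with a probe on the array. Of the 45 genes, 43 were above background and were tested, with their probes well above background on 23 of 23 arrays. These were 9 genes of complex III, 16 of complex IV, 17 of ATP synthase and the cytochrome c gene Cycs. The testis isoforms Cox7b2 and Cox8c were well above background on 0 arrays and were not tested.

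Complex III takes electrons from ubiquinol and hands them to cytochrome c, a small carrier of the intermembrane space. Complex IV passes them from cytochrome c to oxygen, and both complexes pump protons across the inner mitochondrial membrane. ATP synthase lets the protons flow back through a ring of c subunits and uses that rotation to make ATP in its F1 part. In working muscle these complexes meet most of the sustained demand for ATP, and several complex IV subunits exist as a heart and skeletal muscle isoform and a ubiquitous isoform.

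RNA came from the gastrocnemius, a mixed calf muscle with mostly fast fibres, of male C57BL/6J mice, and was hybridised to 1-colour Agilent arrays. Old mice began training at 24 months and adult mice at 5 months, and training lasted 4 weeks. In moderate-intensity continuous training (MICT) the daily session was 1 treadmill run, 45 min long at a speed of 13 m/min. In high-intensity intermittent training (HIIT) it was 3 sprints at 27 m/min, each lasting 2 min and parted by 1 min of slow running at 5 m/min. The sedentary controls were put on a treadmill that did not move, and muscle was taken 12 h after physiological tests. The groups are old MICT, old HIIT, old controls, adult MICT, adult HIIT and adult controls, with 4 arrays each except adult MICT, which has 3. The design text gives 4 mice per group for the arrays, out of 9 that the labels state were trained or kept sedentary.

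The arrays came from 3 slides, with 1 scan time per slide. Slide 1 held adult HIIT and adult controls, slide 2 held adult MICT and old controls, and slide 3 held old HIIT and old MICT. Old MICT against old controls, old HIIT against old controls and old against adult controls therefore each cross slides. So do adult MICT against adult controls and adult HIIT against adult MICT, and no slide holds both groups of any of these comparisons. The comparisons of a training response between ages take in groups from all 3 slides. Between 47.2% and 58.9% of the gene spots of an array were well above background. The 6 skeletal muscle markers, which include the creatine kinase gene Ckm and the actin gene Acta1, were above background on 23 of 23 arrays. Values are scaled log2 signals, the log2 processed signal minus the 75th percentile of its array, and they compare arrays for 1 probe, not genes with each other. The muscle was measured in bulk, so that fewer cells of a type and less RNA per cell cannot be told apart.

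Promoter sequences are shown for 4 genes that the results below turn on or that carry several of the motifs searched. Cox6a1 is the member that was lower after MICT in old mice, Cox8b is a muscle isoform that was higher, Cox6b1 has the largest fall called in old against adult controls, and Atp5l holds 3 of the motifs. The lines give the 250 bases before the start of each gene from RefSeq (GRCm38.p6), 5′ to 3′ on the strand of the gene. Cox6a1 lies at chr5:115348959-115349208, Cox8b at chr7:140900447-140900696, Cox6b1 at chr7:30626115-30626364 and Atp5l at chr9:44920743-44920992, all on the minus strand. Capitals mark the motifs described after the sequences.
Cox6a1: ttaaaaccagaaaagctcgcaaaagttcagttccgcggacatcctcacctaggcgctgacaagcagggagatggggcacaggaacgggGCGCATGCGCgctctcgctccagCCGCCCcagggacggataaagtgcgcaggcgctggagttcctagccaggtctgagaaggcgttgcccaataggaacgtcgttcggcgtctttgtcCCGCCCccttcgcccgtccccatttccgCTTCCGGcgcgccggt
Cox8b: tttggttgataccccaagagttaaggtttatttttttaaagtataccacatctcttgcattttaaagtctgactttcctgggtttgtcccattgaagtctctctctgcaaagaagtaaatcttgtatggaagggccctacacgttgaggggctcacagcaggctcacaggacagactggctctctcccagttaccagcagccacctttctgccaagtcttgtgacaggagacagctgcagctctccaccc
Cox6b1: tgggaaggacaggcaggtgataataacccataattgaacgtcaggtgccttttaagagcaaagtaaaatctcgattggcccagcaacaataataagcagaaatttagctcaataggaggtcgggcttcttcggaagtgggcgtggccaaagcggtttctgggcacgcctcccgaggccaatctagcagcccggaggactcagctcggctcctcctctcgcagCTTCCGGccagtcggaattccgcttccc
Atp5l: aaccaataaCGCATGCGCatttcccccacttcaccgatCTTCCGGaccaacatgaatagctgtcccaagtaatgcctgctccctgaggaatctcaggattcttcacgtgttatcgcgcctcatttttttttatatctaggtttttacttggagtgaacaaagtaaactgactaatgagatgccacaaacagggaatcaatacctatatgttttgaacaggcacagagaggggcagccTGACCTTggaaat

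Motifs were searched on both strands in windows from 250 bases before to 50 bases after the start, which 34 of the 45 genes have in the RefSeq promoter table. Where a gene had several windows, a match in any of them counted. The NRF1 motif GCGCATGCG, the letters bound by a factor known for driving nuclear genes of respiration, was in 7 members (20.6%: Atp5g2, Atp5k, Atp5l, Cox6a1, Cycs, Uqcr11 and Uqcrc1), against 1.95% of 27025 genes with a window and 3.41% of the 12252 tested ones. The GABP motif CCGGAAG was in 11 members (32.4%), against 9.93% of all genes and 16.8% of tested ones. The ERR motif AAGGTCA was in 4 members (11.8%), against 5.38% and 4.25%. The YY1 motif AAGATGGCG was in 2 members (5.88%), against 1.64% and 2.93%. The Sp1 motif GGGCGG was in 13 members (38.2%), against 38.2% and 61.9%. In the 250 bases shown, Cox6a1 has the NRF1, GABP and Sp1 motifs, with the NRF1 motif overlapping itself on both strands. Atp5l has the NRF1, GABP and ERR motifs, Cox6b1 has the GABP motif, and in Cox8b none of these letters occur. A match describes the letters of the window and nothing about binding.

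Most of the 43 genes moved up and down together between arrays, except Cox6a1, Cox8a, Cox6b2 and Cox4i2, which followed the others weakly. Each array was summarised by 1 number: every gene was set to 0 at its mean in the adult controls, and the median over the 43 genes was taken. It was 0.13, 0.05, 0.02 and 0.13 on the 4 old MICT arrays and 0.25, -0.27, -0.09 and -0.08 on the old HIIT arrays, against -0.42, -0.51, 0.05 and -0.31 on the old control arrays. Old controls 1, 2 and 4 lay below every other array, while old control 3 lay among the adult arrays. The same summary was 0.24, -0.15 and -0.07 on adult MICT arrays 1, 3 and 4 and 0.07, 0.14, -0.11 and 0.28 on the adult HIIT arrays, against 0.16, -0.08, 0.02 and -0.10 on the adult control arrays. The 3 adult groups overlapped, and old MICT lay within their range. Of the 43 genes, 11, 17, 16 and 8 were below the adult control mean on the old MICT arrays, 2, 42, 32 and 30 on the old HIIT arrays and 41, 41, 14 and 40 on the old control arrays. The median deviation over all 23707 tested features was -0.19, -0.26, -0.02 and -0.13 on the old control arrays, so these arrays were also below 0 over all features.

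**Figure D1:**
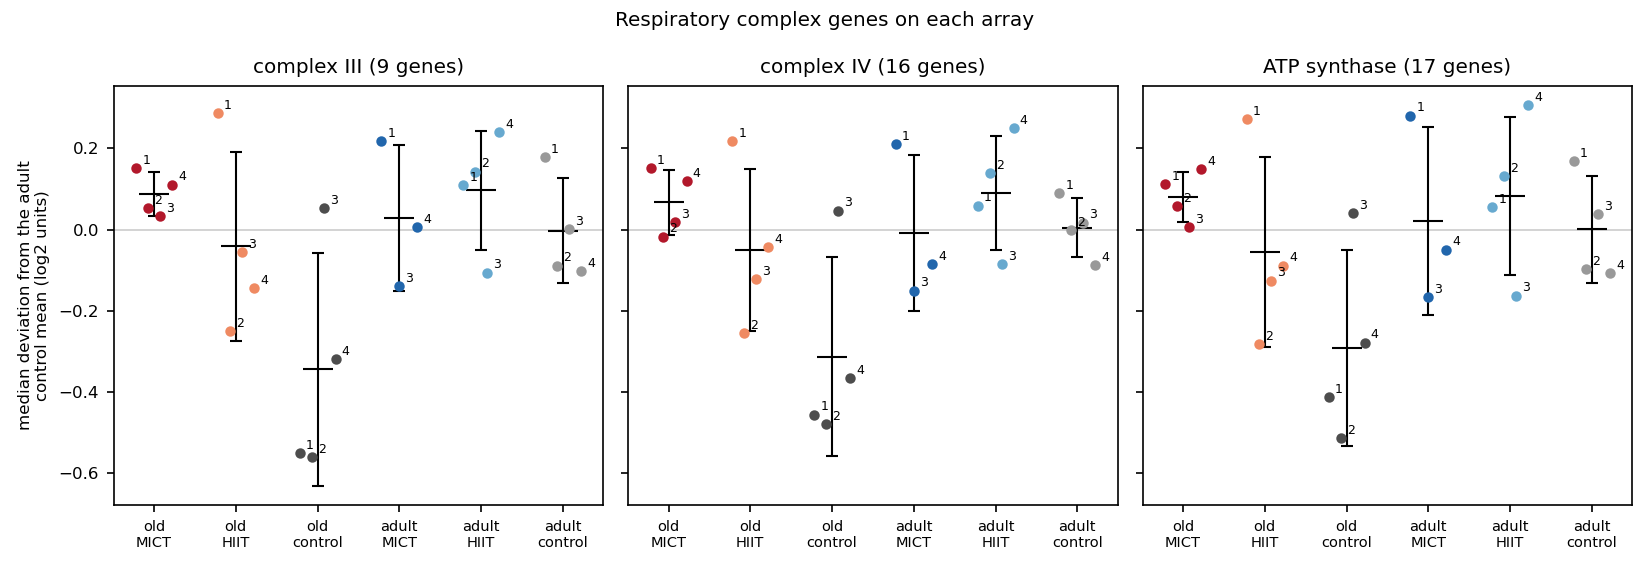
Each point is 1 array, numbered by replicate, and its height is the median log2 deviation of a complex's genes, relative to adult controls, with the group mean and SD as a line and bars. Old controls 1, 2 and 4 lie lowest for complex III and complex IV, for ATP synthase old HIIT array 2 lies at the level of old control 4 (both -0.28), and old control 3 lies near the adult arrays.

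Old MICT mice had higher signal than old controls for most of these genes. Of the 43 genes, 23 were higher and 1 was lower by limma at an adjusted p under 0.05, against 21.3% higher and 9.03% lower among all 23707 features. The median difference over the 43 genes was 0.38 on the log2 scale, against 0.19 over all features, and 40 of the 43 lay above that median of all features. By complex, 7 of 9 genes of complex III were higher, 9 of 17 of ATP synthase, 7 of 16 of complex IV with 1 lower, and 0 of 1 for cytochrome c. In 10 of the 43 genes every old MICT array was above every old control array, against 16.3% of all features. With quantile scaling in place of the 75th percentile the split became 1 higher and 2 lower, the median over all features moved by -0.13 to 0.06, and the median over the 43 genes was 0.11.

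The call counts rested on single arrays and on the model. Counts under alternatives, here and below, are given without the share of all features called in the same fit. They do not tell a change in these genes from a change over the whole array. Without old control 3 the number of genes called was 40, without old controls 1, 2 or 4 it was 4, 3 or 13, and without old MICT arrays 1, 2 or 4 it was 8, 11 or 11. It was 0 when old controls 1 and 2 were both left out (member median 0.20), when only the 2 groups were fitted, when slide entered as an additive term (median 0.21) and when cell type scores entered as covariates (median 0.24). The fit with slide took age and training as additive, so training was assumed to act alike at both ages. Its MICT value is adult HIIT minus adult controls plus old MICT minus old HIIT. Old control arrays do not enter that value, so it is not a slide-corrected form of this comparison. The immune cell markers moved along with the comparison. Among all features 21.3% were called higher and 9.03% lower, the shares to set beside the marker counts that follow. The B and plasma cell score (the median deviation of 8 markers) in old MICT was 0.13, 0.12, 0.27 and 0.29, against 5.56, 4.01, 1.86 and 1.19 in old controls, and 5 of the 8 markers were lower by limma. The T and NK cell score ranged from -0.15 to 0.61 in old MICT and from 0.98 to 3.84 in old controls, and 6 of 10 markers were lower. The skeletal muscle score was 0.04, 0.10, -0.09 and 0.33 in old MICT, against -0.70, -0.64, 0.14 and -0.15 in old controls, with 2 of 6 markers higher and a median difference of 0.49. Of 12 fast-twitch fibre markers, 4 were higher and 12 were positive. Of 10 slow-twitch fibre markers 0 were called and 2 were positive, with a median difference of -0.59. Of 7 macrophage markers 3 were lower, and of 7 adipocyte markers 0 were called and 0 were positive, with a median of -1.10. Their part in the result was not tested beyond the fit with covariates.

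**Figure D2:**
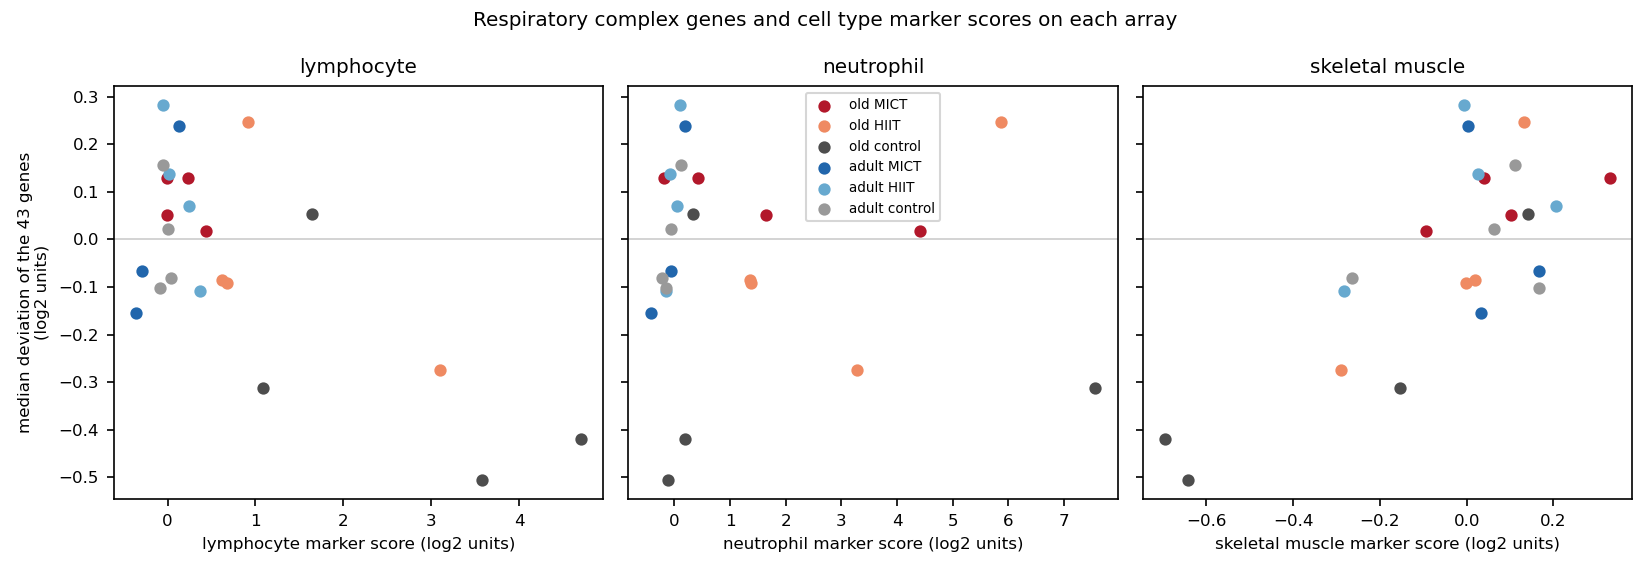
Each point is 1 array, with the median deviation of the 43 genes in log2 units on the vertical axis and a cell type marker score in log2 units on the horizontal axis of each panel, coloured by group. The panels show a lymphocyte score (the mean of the B and plasma cell score and the T and NK cell score), a neutrophil score and a skeletal muscle score. Old controls 1 and 2 have the lowest values for the 43 genes and the highest lymphocyte scores, while the 4 old MICT arrays lie below every old control in lymphocyte score.

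In complex III the largest difference was in Uqcrfs1, the Rieske iron-sulfur protein that takes the first electron from ubiquinol. Its scaled log2 signal was 7.76, 7.52, 7.59 and 7.55 in old MICT, against 6.88, 6.83, 7.50 and 6.84 in old controls. All 4 old MICT arrays were above all 4 old controls, although old control 3 came within a narrow gap of the lowest of them. The difference was 0.59 ± 0.15 (limma SE, n = 4 each), a 1.51-fold higher signal with an adjusted p of 0.0101. The call held in every fit that left out 1 array of either group, but without old controls 1 and 2 the difference was 0.43 with an adjusted p of 0.162.

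The genes of the core proteins of complex III, which hold the complex together on its matrix side, had higher RNA signal as well. Uqcrc2 had 7.84, 7.62, 7.89 and 7.83 in old MICT, against 7.002, 7.05, 7.68 and 7.36 in old controls, and only old control 3 reached the old MICT range. The difference was 0.52 ± 0.14 (limma adjusted p = 0.011). Uqcrc1 had 6.14, 6.11, 6.13 and 6.21 in old MICT, against 5.36, 5.52, 6.02 and 5.75 in old controls, with no overlap and a difference of 0.48 ± 0.17 (limma adjusted p = 0.0345). Among the small subunits, Uqcrh (the hinge protein), Uqcrb, Uqcr10 and Uqcr11 were higher by 0.33 to 0.40, and Uqcrq, at 0.38, was not called (limma adjusted p = 0.109). Cyc1, the cytochrome c1 that passes the electron on, differed by 0.37 ± 0.17 and was not called (limma adjusted p = 0.0976). Cytochrome c itself, Cycs, differed by 0.31 ± 0.13 (limma adjusted p = 0.0723).

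In complex IV, Cox4i1, the ubiquitous form of a subunit through which ATP and ADP are known to act on the enzyme, had 8.91, 8.78, 8.75 and 8.89 in old MICT, against 8.21, 8.11, 8.82 and 8.29 in old controls. Old control 3 was inside the old MICT range and the other 3 were below it. The difference was 0.47 ± 0.14 (limma adjusted p = 0.0214). Cox5b, which binds zinc on the matrix side, rose by 0.46 ± 0.14 (limma adjusted p = 0.018), and Cox6b1, a subunit facing the intermembrane space, rose by 0.45 ± 0.16 (limma adjusted p = 0.0385). Cox5a differed by 0.35 ± 0.14 and was not called (limma adjusted p = 0.0673). Cox7c rose by 0.39 ± 0.12 (limma adjusted p = 0.0229). Cox6c differed by 0.49 ± 0.20 and was not called (limma adjusted p = 0.0689). Cox4i2, the isoform known from lung and from low oxygen, differed by 0.25 ± 0.17 (95% interval -0.09 to 0.60), and the testis isoform Cox6b2 by 0.12 (limma adjusted p = 0.243 and 0.539).

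Cox7a2l, also called SCAFI, is known for linking complex III to complex IV in supercomplexes. Whether its protein does so in the mouse strain used here was not tested, and RNA signal cannot show it. Cox7a2l had the smallest adjusted p of the 43 genes in this comparison. Its signal was 7.25, 7.22, 7.17 and 7.11 in old MICT, against 6.74, 6.69, 7.03 and 6.79 in old controls. The groups did not overlap, with old control 3 again the highest control. The difference was 0.38 ± 0.09, 1.30-fold (limma adjusted p = 0.00745). It stayed called without any single array of either group, and without old controls 1 and 2 it was 0.28 (limma adjusted p = 0.131).

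Cox6a1 moved the other way. It encodes the ubiquitous isoform of subunit VIa and was the only member called lower. Its signal was 7.08, 7.02, 6.78 and 6.41 in old MICT, against 7.54, 7.26, 7.06 and 7.39 in old controls, so the highest old MICT array just passed the lowest control, which was old control 3. The difference was -0.49 ± 0.18, a fold of 0.712 (limma adjusted p = 0.0479). With quantile scaling it was -0.79. The additive fit with slide gave 0.08 for MICT, but that value comes from the adult HIIT, adult control, old MICT and old HIIT arrays. It holds no old control array, so it is not the same difference with its sign turned. Cox8a, the ubiquitous isoform of subunit VIII, differed by -0.10 ± 0.12 (95% interval -0.35 to 0.14, limma adjusted p = 0.499), and was called lower with quantile scaling at -0.39.

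In ATP synthase the F1 part, which makes the ATP, had 3 of 5 genes higher, against 21.3% of all features. Atp5a1, the alpha subunit, had 8.80, 8.72, 8.64 and 8.87 in old MICT, against 8.18, 8.02, 8.72 and 8.17 in old controls, and rose by 0.48 ± 0.17 (limma adjusted p = 0.0388). Only old control 3 lay within the old MICT range. Atp5c1, the gamma subunit that turns inside F1, had 6.28, 6.15, 6.15 and 6.10 in old MICT, against 5.57, 5.53, 6.14 and 5.51 in old controls, a difference of 0.48 ± 0.16 (limma adjusted p = 0.0284). A dimmer probe of the same gene differed by 0.17. Atp5b, the catalytic beta subunit, differed by 0.44 ± 0.18 and was not called (limma adjusted p = 0.0702).

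Against 21.3% of all features, the peripheral stalk, which keeps F1 from turning with the rotor, had 3 of 4 genes higher. These were Atp5o, the link to the top of F1, at 0.42 ± 0.13, Atp5j at 0.41 ± 0.12 and Atp5pb at 0.39 ± 0.12. Atp5h, at 0.35 ± 0.17, was not called (limma adjusted p = 0.126). The 3 subunit c genes encode the same mature protein with different import sequences. Atp5g2 rose by 0.30 ± 0.10 (limma adjusted p = 0.0269), while Atp5g1 at 0.35 ± 0.16 and Atp5g3 at 0.37 ± 0.16 were not called (limma adjusted p = 0.0983 and 0.0749). Of the 5 accessory subunits in the membrane, Atp5md and Atp5mpl were higher, and the rest, Atp5j2, Atp5k and Atp5l, differed by 0.30 to 0.37 without a call.

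**Figure D3:**
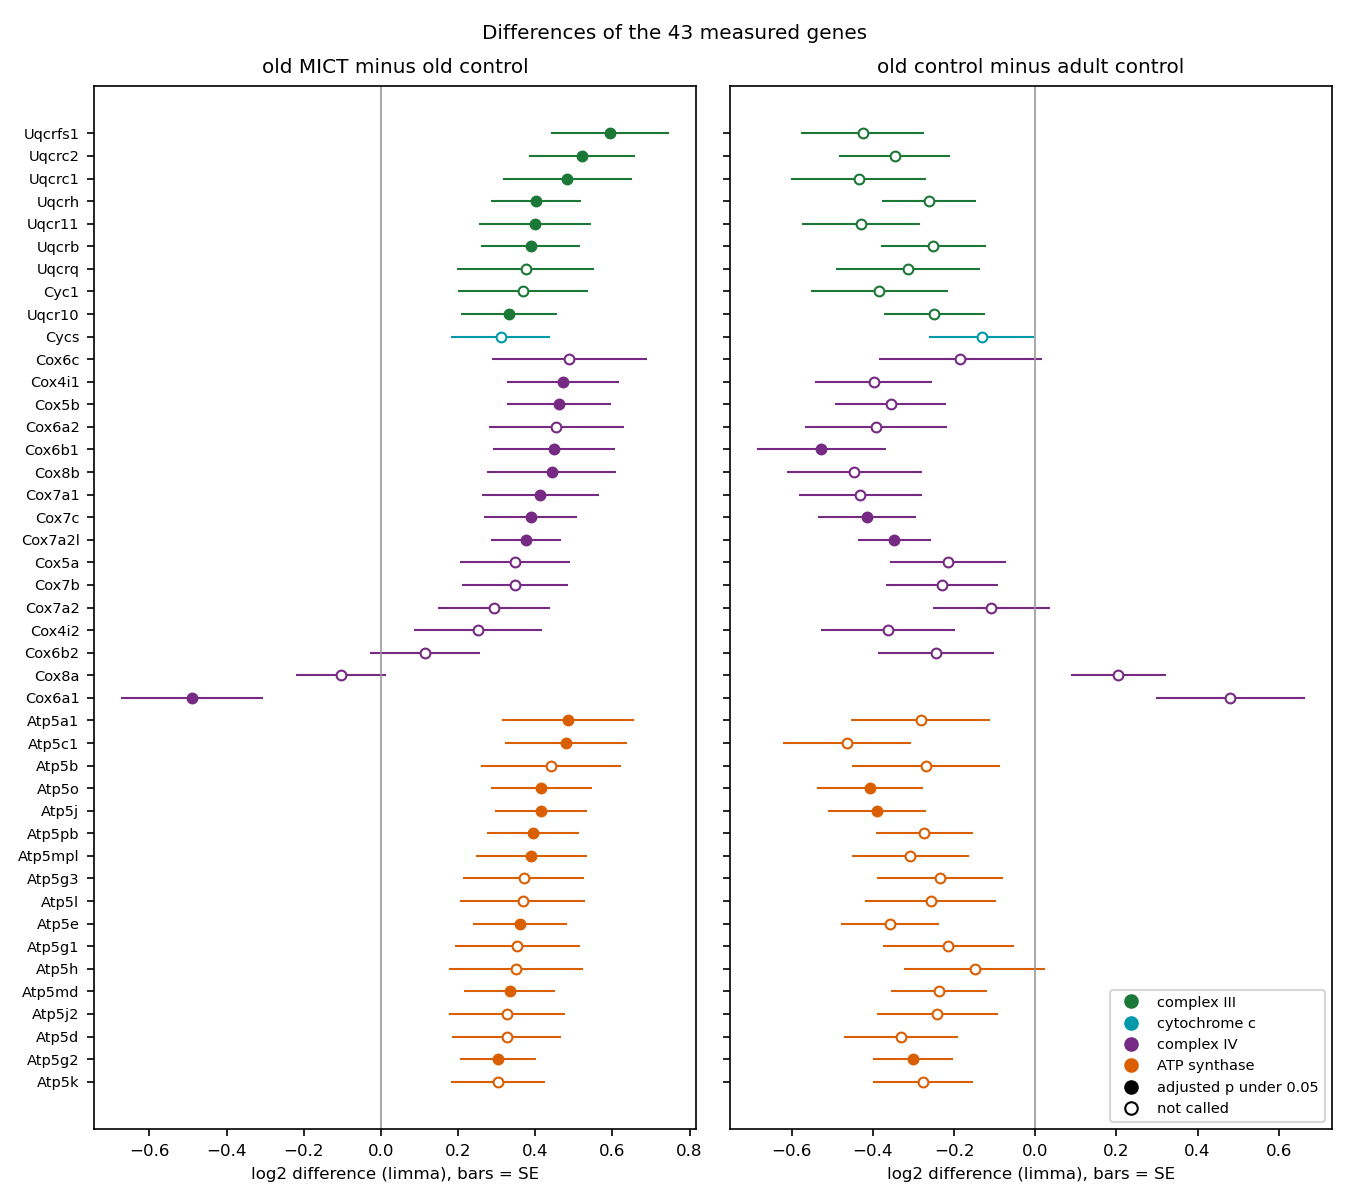
Log2 differences of the 43 genes with their limma SE as bars, for old MICT against old controls and for old against adult controls, coloured by complex. Of the 43 genes, 41 lie right of 0 for old MICT against old controls and 41 lie left of 0 for old against adult controls, and Cox6a1 and Cox8a lie on the opposite side in both, which share the old control arrays.

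Old controls had lower signal than adult controls for a few of these genes. By limma 6 of the 43 were lower and 0 higher, against 8.31% lower and 4.56% higher among all features. The median difference was -0.30, against -0.14 over all features, and 39 of the 43 lay below that median. This comparison shares the old control arrays with the training comparisons in old mice, so its values are not separate evidence. In 2 genes, Cox7a2l and Cox7c, every old control array lay below every adult control array, against 10.7% of all features.

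The 6 genes came from complex IV and ATP synthase. Cox6b1 had 4.72, 4.73, 5.53 and 4.98 in old controls, against 5.62, 5.34, 5.62 and 5.50 in adult controls, with old control 3 inside the adult range and the other 3 below it. The difference was -0.53 ± 0.16 (limma adjusted p = 0.0368). Cox7c, a small subunit of complex IV, had 6.57, 6.55, 7.12 and 6.84 in old controls, against 7.20, 7.19, 7.20 and 7.15 in adult controls, without overlap, and differed by -0.41 ± 0.12 (limma adjusted p = 0.0331). The adult controls were close to each other in this gene and the old controls spread widely. Cox7a2l had 6.74, 6.69, 7.03 and 6.79 in old controls, against 7.26, 7.08, 7.17 and 7.12 in adult controls, and differed by -0.35 ± 0.09 (limma adjusted p = 0.0218). In ATP synthase, Atp5o fell by 0.41 ± 0.13, Atp5j by 0.39 ± 0.12 and Atp5g2 by 0.30 ± 0.10 on the log2 scale (limma adjusted p = 0.046, 0.0396 and 0.0486).

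The carriers and core subunits were not called between old and adult controls. Uqcrfs1 differed by -0.43 ± 0.15 (limma adjusted p = 0.065), Uqcrc1 by -0.43 ± 0.17 (0.0806), Uqcrc2 by -0.35 ± 0.14 (0.0891) and Cyc1 by -0.38 ± 0.17 (0.12). Cycs differed by -0.13 ± 0.13, with a 95% interval of -0.40 to 0.14. Atp5c1 differed by -0.46 ± 0.16 (0.0541), Atp5a1 by -0.28 ± 0.17 (0.254) and Atp5b by -0.27 ± 0.18 (0.307). Cox4i1 differed by -0.40 ± 0.14 (0.0677), Cox5b by -0.36 ± 0.14 (0.0797), Cox5a by -0.22 ± 0.14 (0.295) and Cox4i2 by -0.36 ± 0.17 (0.135). The positive differences were Cox6a1 at 0.48 ± 0.18 (limma adjusted p = 0.0788) and Cox8a at 0.20 ± 0.12 (limma adjusted p = 0.227).

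The number called moved with single arrays here as well. Without old control 3 it was 27, without old controls 1, 2 or 4 it was 0, 0 or 3, without adult controls 1, 2, 3 or 4 it was 0, 11, 0 or 0, and without old HIIT array 1, which enters through the shared variance, it was 10. It was 0 without old controls 1 and 2 (median -0.14), with slide as an additive term (median -0.08), and with cell type covariates (median -0.02). The value with slide again assumes that training acts alike at both ages. It is old controls minus adult MICT plus the MICT value of that fit. Set against the adult MICT arrays of the same slide, 2 genes were lower and the median was -0.30. With quantile scaling Cox6a1 was higher at 0.65 and 1 gene was lower, a split of 1 higher and 1 lower. Among all features 4.56% were called higher and 8.31% lower in old controls. The B and plasma cell markers were higher in old controls in 5 of 8, the T and NK cell markers in 6 of 10 and the adipocyte markers in 3 of 7, and the skeletal muscle markers were lower in 2 of 6. Their part in the result was not tested beyond the fit with covariates.

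**Figure D4:**
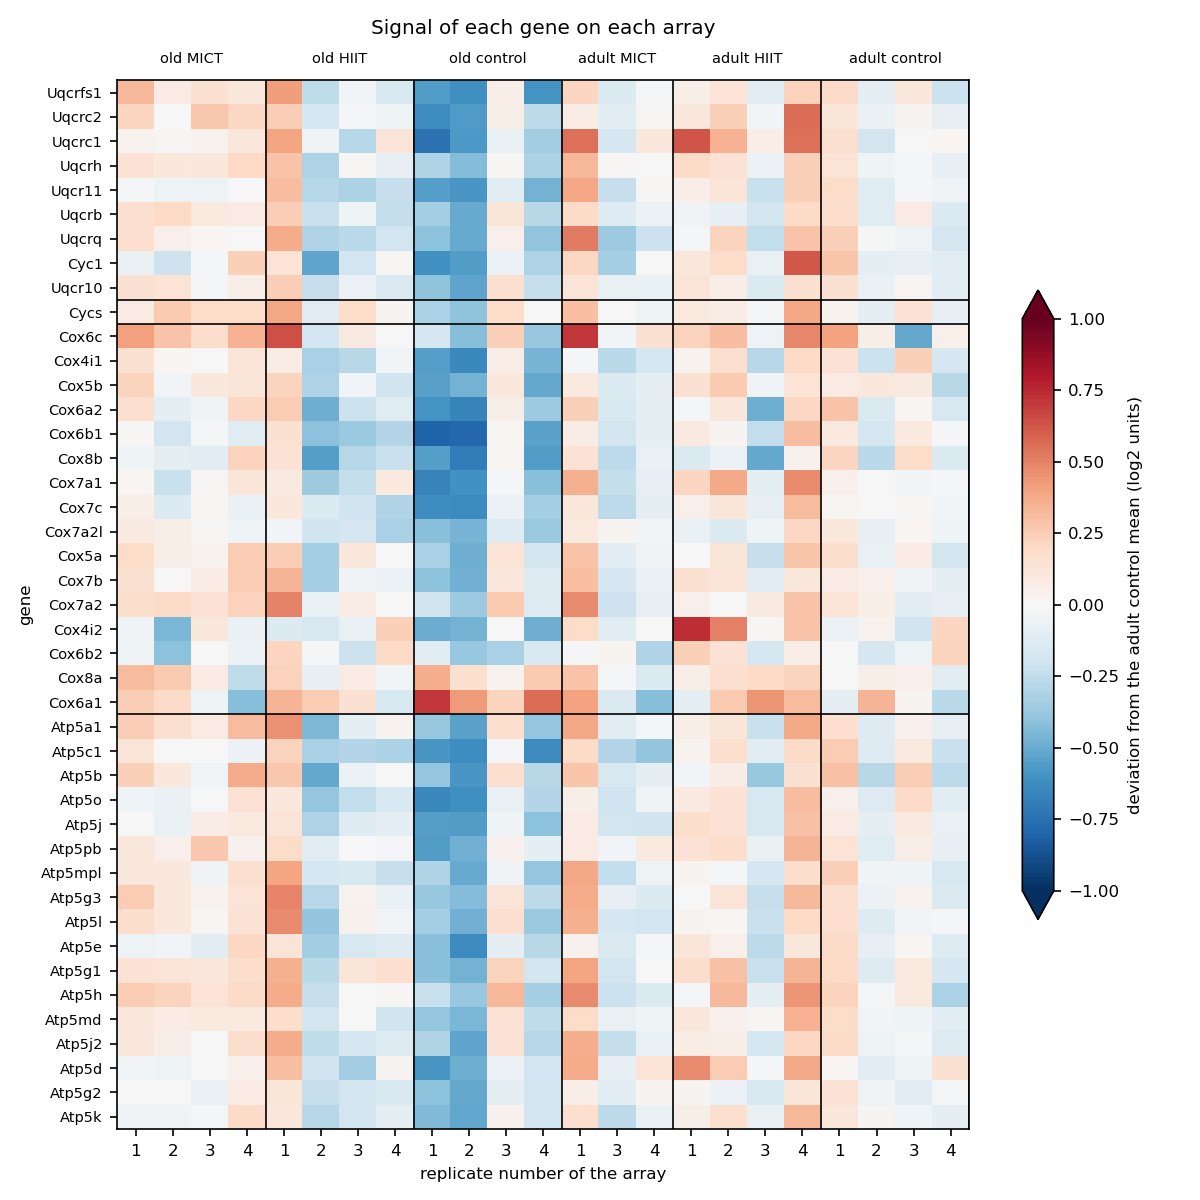
Log2 deviations of the 43 genes (down) relative to the mean of the adult controls, on each of the 23 arrays (across, by group and replicate). Old controls 1, 2 and 4 show low values in nearly every row except Cox6a1 and Cox8a, and old control 3 does not.

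Complex IV has muscle isoforms of subunits VIa, VIIa and VIII, which are made in heart and skeletal muscle, beside ubiquitous ones. In old MICT against old controls, where 21.3% of all features were higher, 2 of the 3 muscle isoforms rose. Cox7a1 rose by 0.41 ± 0.15 and Cox8b by 0.44 ± 0.17 (limma adjusted p = 0.0453 and 0.0498), and Cox6a2 differed by 0.45 ± 0.17 (limma adjusted p = 0.0541). Of their ubiquitous partners, Cox6a1 fell, Cox8a was not called, and Cox7a2 differed by 0.29 ± 0.15 (limma adjusted p = 0.125). Cox6a2 had 9.998, 9.73, 9.79 and 10.03 in old MICT, against 9.23, 9.16, 9.88 and 9.46 in old controls. Old control 3 again lay in the old MICT range.

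The ratio of muscle to ubiquitous isoform was taken on each array as a difference of log2 signals, set to 0 at the adult control mean, a measure chosen after the values were seen. For Cox6a2 over Cox6a1 it was -0.08, -0.29, 0.01 and 0.63 in old MICT, against -1.30, -1.10, -0.17 and -0.92 in old controls. The groups overlapped through old control 3 alone, with means of 0.07 ± 0.39 and -0.87 ± 0.50 (SD, n = 4 each) and an exact permutation p of 0.0571. For Cox8b over Cox8a it was -0.35, -0.36, -0.20 and 0.49 in old MICT, against -0.91, -0.86, -0.02 and -0.82 in old controls (exact permutation p = 0.114). For Cox7a1 over Cox7a2 the old MICT and old control means were -0.20 ± 0.14 and -0.32 ± 0.10 (SD, n = 4 each, exact permutation p = 0.229).

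Between old and adult controls the 3 ratios were lower by 0.87, 0.65 and 0.32 for subunits VIa, VIII and VIIa. Cox7a1 over Cox7a2 was -0.47, -0.25, -0.28 and -0.29 in old controls, against -0.08, -0.06, 0.08 and 0.07 in adult controls. Here old control 3 was as low as the others and the groups did not overlap, and the exact permutation p (2-sided) was 0.0286, below which 4 against 4 arrays cannot go. Over the 21 tests of 3 ratios in 7 comparisons, the smallest adjusted p was 0.3, so no ratio passed the correction. The signs of these differences held under normexp background, quantile scaling and without old controls 1 and 2.

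**Figure D5:**
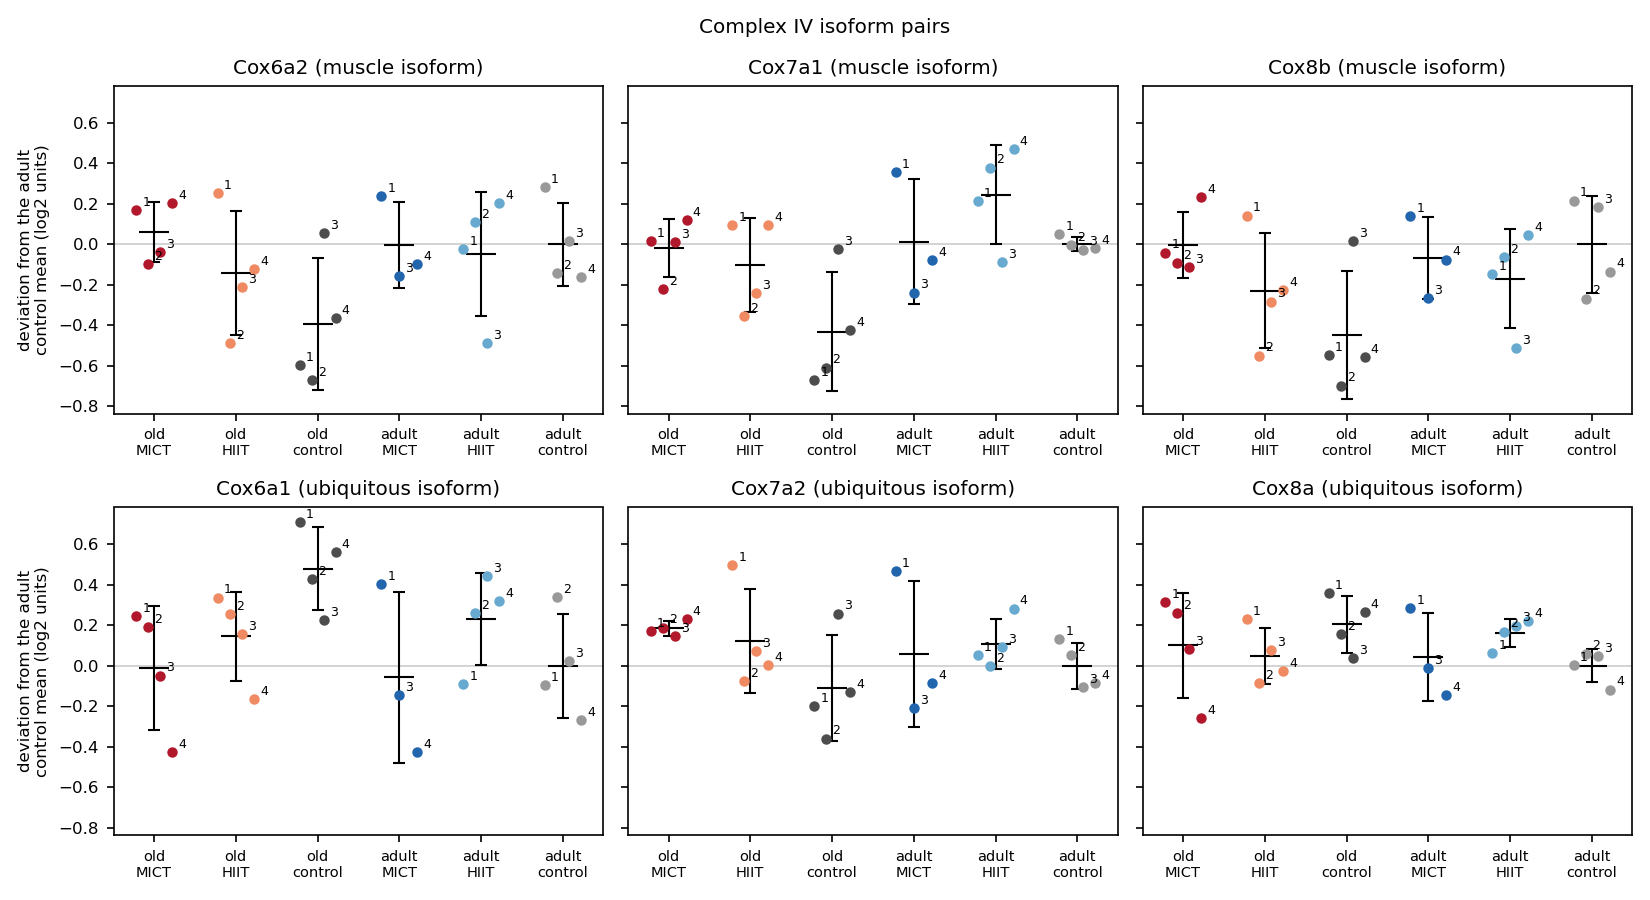
Log2 deviations relative to adult controls for the muscle isoforms (upper row) and the ubiquitous isoforms (lower row) of 3 complex IV subunits, with each array as a point and the group mean and SD as a line and bars. Old controls 1, 2 and 4 are low for Cox6a2 and Cox8b and high for Cox6a1, while for Cox7a1 and Cox7a2 both isoforms are low.

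Old HIIT against old controls gave 0 calls among the 43 genes by limma, against 0.485% higher and 0.00844% lower among all features. Without adjustment 7 of the 43 had p under 0.05, a share near that of all features (3748 of 23707). The median difference was 0.25, against 0.08 over all features, and 41 of the 43 were positive. Uqcrc1 had 6.49, 6.07, 5.81 and 6.23 in old HIIT, against 5.36, 5.52, 6.02 and 5.75 in old controls, a difference of 0.49 ± 0.17 (limma adjusted p = 0.184). The groups overlapped through old control 3. Uqcrfs1 had 7.85, 7.18, 7.41 and 7.28 in old HIIT, against the 6.83 to 7.50 of the old controls, and differed by 0.42 ± 0.15 (limma adjusted p = 0.207). Uqcrc2 differed by 0.35 ± 0.14 (limma adjusted p = 0.241), Cox6a1 by -0.33 ± 0.18 and Cox8a by -0.15 ± 0.12. Without old control 3 the count was 4 genes higher.

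Old HIIT against old MICT, both on slide 3, gave 0 calls by limma, against 0% of all features. Without adjustment 1 of the 43 genes had p under 0.05, against 3982 of the 23707 features. The median difference was -0.13, against -0.09 over all features, and turned to 0.05 with quantile scaling, so it has no settled direction. Cox7a2l had the smallest p, with 7.13, 6.96, 6.99 and 6.83 in old HIIT, against 7.25, 7.22, 7.17 and 7.11 in old MICT. Only old HIIT 1 reached into the old MICT range, and the difference was -0.21 ± 0.09 (limma adjusted p = 0.254). Uqcrb differed by -0.20 ± 0.13 and Cox4i1 by -0.21 ± 0.14 (limma adjusted p = 0.428 and 0.463). Over the 43 genes the 95% intervals ran from -0.62 to 0.54, and differences of that size between the regimens lie within them.

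In adult mice neither regimen gave a call. For adult MICT against adult controls 0 of 43 genes were called (0% of all features). Without adjustment 0 had p under 0.05, against 487 of the 23707 features. The median difference was 0.01, with 24 genes positive and 19 negative. Cox6c had the smallest p at 0.28 ± 0.22, then Cox4i1 at -0.15 ± 0.16 and Atp5c1 at -0.16 ± 0.17 (limma adjusted p = 1 for each). The 95% intervals over the 43 genes ran from -0.52 to 0.73. Adult MICT had 3 arrays, 1 of which, array 1, was higher in most of these genes than the other two.

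For adult HIIT against adult controls, both on slide 1, 0 genes were called (0% of all features) and the median difference was 0.08. Without adjustment 2 of the 43 genes had p under 0.05, against 1206 of the 23707 features. Uqcrc1 had 6.72, 6.45, 6.16 and 6.65 in adult HIIT, against 6.26, 5.91, 6.10 and 6.12 in adult controls, a difference of 0.40 ± 0.17 (limma adjusted p = 0.923). Cox4i2 had 0.76, 0.52, 0.03 and 0.31 in adult HIIT, against -0.04, 0.05, -0.18 and 0.24 in adult controls, a difference of 0.38 ± 0.17 (limma adjusted p = 0.923). In both genes the third adult HIIT array was the low one and overlapped the controls. Atp5d differed by 0.28 ± 0.14. Cox8a was the 1 gene whose groups did not overlap, against 1.5% of all features, with 6.52, 6.63, 6.66 and 6.68 in adult HIIT and 6.46, 6.52, 6.51 and 6.34 in adult controls. Adult HIIT against adult MICT, which lie on different slides, gave 0 calls (0% of all features) and a median difference of 0.08. Without adjustment 0 genes had p under 0.05, against 1837 of the 23707 features. The smallest p values were in Cox4i2, at 0.36 ± 0.18, Atp5j and Uqcrc2 (limma adjusted p = 0.658, 0.729 and 0.745).

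The response to MICT was compared between ages as an interaction, the difference in old mice minus the difference in adult mice. It gave 0 calls, against 0.595% higher and 0.097% lower among all features. Without adjustment 12 of the 43 genes had p under 0.05, a share near that of all features (6004 of 23707). The median was 0.34, against 0.20 over all features, and 41 genes were positive. Cox4i1 had 0.63 ± 0.21, Atp5j 0.51 ± 0.18 and Atp5c1 0.64 ± 0.23 (limma adjusted p = 0.111, 0.113 and 0.122), and Cox6a1 had -0.43. The rise called in old mice is therefore not shown to differ from the adult values. Without old control 3 the count of called genes was 9. For HIIT the interaction gave 0 calls (0% of all features) and a median of 0.16. Without adjustment 1 gene had p under 0.05, against 2699 of the 23707 features. Cox6a1 had -0.57 ± 0.26 (limma adjusted p = 0.431), Cox8a -0.32 ± 0.17 and Cox8b 0.39 ± 0.24.

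The other genes of the respiratory chain and of its assembly were taken from lists. In old MICT against old controls, 27 of 35 complex I genes were higher, with a median of 0.39, against 21.3% of all features with a median of 0.19. The 1 of 4 complex II genes that was higher, Sdha, and the 6 of 23 complex IV assembly genes are shares near that of all features. Of 5 complex III assembly genes 2 were higher, Uqcc1, which is needed to make cytochrome b, by 0.56 ± 0.14 and Uqcc2 by 0.35 (limma adjusted p = 0.0104 and 0.0383). The 6 complex IV ones include Lrpprc, which stabilises mitochondrial mRNAs, at 0.50 and Surf1, an assembly factor lost in Leigh syndrome, at 0.48. The 6 also count Ndufa4, at 0.43, which was on the list although it encodes a complex IV subunit and not an assembly factor. Of 5 ATP synthase assembly genes 3 were higher, Oxa1l, the membrane insertase, at 0.48, Fmc1 at 0.38 and Tmem70, which acts on the c ring, at 0.38.

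Of 10 regulators of mitochondrial genes 6 were higher in old MICT than in old controls, against 21.3% of all features. The largest were Pprc1, a coactivator of the PGC-1 family, at 0.81 ± 0.21, Tfb2m, a mitochondrial transcription factor, at 0.69 ± 0.15, and Polrmt, the mitochondrial RNA polymerase, at 0.51 ± 0.14 (limma adjusted p = 0.0113, 0.00487 and 0.0114). Ppargc1a, which encodes PGC-1 alpha, differed by 0.02 ± 0.20 (limma adjusted p = 0.945). Between old and adult controls 9 of 35 complex I genes were lower, against 8.31% of all features. The 2 of 23 complex IV assembly genes called lower are a share near that of all features, and were Sco2, which delivers copper, at -0.60 ± 0.19 and Higd2a at -0.47 ± 0.13 (limma adjusted p = 0.0431 and 0.0257). No regulator was called there, 0 of 10, and the 6 lists had 0 calls in each of the other 7 comparisons.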

How the data were processed

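Gene expression was measured in gastrocnemius of 23 mice, with groups taken from the sample titles. Per the file headers, the Agilent Feature Extraction software made the deposited intensity of each spot, a processed signal that was background subtracted and detrended within its array. The raw median intensity and local background deposited with it served an alternative. The deposited value file of the series holds a score per spot. How the authors made it is not given in the sources used here, and it followed the log10 signal of each array with r of at least 0.999545, with column medians from -0.3 to -0.1, so its scale and centring stay unstated.

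Of 62976 spots, 3671 controls were left out, and spots flagged as non-uniform or population outliers were dropped. The log2 intensity was scaled by subtracting the 75th percentile of its array. Probes well above background on at least 3 arrays were kept. Accessions were matched to symbols in a RefSeq table of GRCm38.p6 (28331 of 29786), used for names because the array annotation is of mm9, and the brightest probe stood for a gene. This gave 23707 features.

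Limma 3.58.1 in R 4.3.3 (package data.table, 1.17.8) fitted 6 group means to the 23 arrays, with a moderated variance and an intensity trend. Tests were 2-sided with Benjamini-Hochberg adjustment over all features, and were tested on simulated data. Each ± is limma's SE unless called an SD. Isoform ratios were tested with exact 2-sided permutations. The number of arrays limits the precision. The members and lists were chosen with earlier results of these data known. Named genes are up to 5 called members with the largest rise and fall, or the 3 with the smallest p, plus the isoform families, the subunit c genes and the carriers and catalytic subunits. Genes named from the other lists are up to 3 called genes, largest first, and Ppargc1a and Sdha were named after their values were seen. Alternatives were background correction, scaling, filter, probe rule, array weights, slide, composition covariates, the deposited scores, a replicate block and leaving out arrays.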

Additional observations from a re-analysis of the deposited data

Results flagged for a closer look

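Each of the 43 tested members, the 3 isoform ratios and the median over the members was screened in the 5 groups of 4 arrays. Of these 235 sets of 4 arrays, 16 had a highest or lowest array that stood apart from the other three by Dixon's 95% criterion, and chance alone marks about 1 in 20. Sets of 1 array are not independent of each other, since most members vary together. Old control 3 was the array that stood apart in 5 of them: Cox4i2 had 0.0244 there, with the others from -0.47 to -0.45, Uqcrfs1 had 7.50 (others 6.83 to 6.88), Cox5b had 8.22 (others 7.58 to 7.64), Atp5c1 had 6.14 (others 5.51 to 5.57), and the Cox8b over Cox8a ratio was -0.0201 (others -0.91 to -0.82). Old HIIT array 1 was the high one in 4 sets: Atp5c1 had 6.37 (others 5.83 to 5.86), Atp5mpl 8.14 (others 7.52 to 7.60), Uqcr11 8.40 (others 7.78 to 7.86) and Uqcrq 9.004 (others 8.33 to 8.44). On old MICT array 2, Cox6b2 had -1.53 (others -1.18 to -1.12) and the Cox7a1 over Cox7a2 ratio was -0.41 (others -0.16 to -0.11). Atp5k had 8.46 on old MICT array 4 (others 8.24 to 8.26). On adult HIIT array 3, Cox7b had 8.08 (others 8.30 to 8.34) and Cox8b over Cox8a was -0.71 (others -0.23 to -0.18). Cox5b had 7.84 on adult control 4 (others 8.20 to 8.22), and Cyc1 had 7.67 on adult control 1 (others 7.29 to 7.32). All values are scaled log2 signals or log2 ratios set to 0 at the adult control mean. The neutrophil marker score was 5.86 on old HIIT array 1 (3.27, 1.37 and 1.36 on the other old HIIT arrays) and 0.33 on old control 3. It was also high on old control 4, at 7.56, and on old MICT array 3, at 4.41. What sets old control 3 and old HIIT array 1 apart was not tested.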

How the results depend on the processing

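The number of the 43 genes called in old MICT against old controls was 24. It was 15 with normexp background, 3 with quantile scaling, 12 without the filter on dim probes, 0 with only the groups compared, 0 with slide as an additive term, 1 with the deposited score table, 0 without old controls 1 and 2, 0 with composition covariates and 15 without the neutrophil-rich arrays, an alternative chosen after seeing the data. For old against adult controls, where 6 were called, these alternatives gave 12, 2, 1, 0, 0, 0, 0, 0 and 3 in the same order. Centring arrays on the median gave 10, array weights 28 and the same-slide comparison with adult MICT 2. Array weights also gave 11 calls for adult HIIT against adult MICT and 14 for the MICT response between ages, both 0 in the fit reported. The share of all features called in each alternative is not given beside these counts. The causes of the changes in the counts were not tested, apart from the fits that hold fewer arrays by construction. Leaving out each array in turn gave 3 to 40 calls for old MICT against old controls, 0 to 27 for old against adult controls, 0 to 4 for old HIIT against old controls, 0 to 9 for the MICT response between ages and 0 to 0 for each of the other 5 comparisons, and the highest counts all came without old control 3. The single values that turned sign or reached 0 were Atp5g2, at -0.025 for old MICT against old controls and 0.025 for old against adult controls with the deposited scores, Atp5j at 0 there in the second comparison, and Cox6a1 at 0.0777 for MICT with slide as a term. That Cox6a1 value holds no old control array and is not old MICT against old controls. The same-numbered arrays did not pair, with correlations of deviations from -0.323 to 0.336, and a replicate block gave 26 and 9 calls in place of 24 and 6. The isoform ratios kept their sign in every alternative run, with leave-one-out ranges from old MICT against old controls of 0.76 to 1.18, 0.07 to 0.19 and 0.35 to 0.76 for subunits VIa, VIIa and VIII.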

Other observations

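Genes outside the 45 that varied most like them were also mitochondrial. Over the 23 arrays, as deviations from the group means, the genes with the highest Pearson r with the median of the 43 genes were Ndufv1 (0.961), a complex I subunit, Sdhb (0.96), the iron-sulfur subunit of complex II, Cs (0.948), which encodes citrate synthase, Slc25a3 (0.937), the mitochondrial phosphate carrier, and Ndufa5 (0.931). These are descriptions, since the arrays share a tissue and a scaling.

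Within the 43 genes, 39 followed that median with r from 0.755 (Cox7a2l) to 0.966. The other four were Cox6a1 (0.025), Cox8a (0.177), Cox6b2 (0.238) and Cox4i2 (0.382). Cox6a1 and Cox8a are the ubiquitous isoforms whose differences ran opposite to the rest in both old control comparisons.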
